A study of Mus musculus with 2 samples.

Results

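The genes described here were 44 listed mouse genes for chromatin regulators linked to human neurodevelopmental disorders, of 21938 protein-coding genes in the annotation. CTCF was mapped at them by ChIP-seq, which sequences the DNA that an antibody pulls down. The tissue was forebrain of B6NCrl mice at postnatal day 0, pulverized and pooled over many dissections, with the sex not collected and no genotype or treatment other than the strain named in the labels. There were 2 libraries, biological replicates 1 and 2 of 1 group. Both cited the same biosample and donor, so differences between the replicates may be technical only. Peak lists hold no expression values, so the forebrain label could not be checked against marker genes.

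A site was a peak of the optimal list, the peaks that passed the authors' reproducibility (IDR) threshold, placed at its summit on mm10. Promoter sites lay within 1 kb of a transcription start site (TSS) in GENCODE M21, and gene-body sites lay between the start and end of the gene. By these rules the 44 genes held 201 distinct sites of 56462 in the whole list, and no site was counted for more than 1 listed gene. Of these, 38 were promoter sites, 26 of them also inside the gene body, and 163 lay elsewhere in the gene. Another gene's TSS lay within 1 kb of 7 of the 38 promoter sites, a share that was not taken over all promoter sites. All 44 genes were found in the annotation, and none was dropped by a filter.

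CTCF binds DNA through zinc fingers at a long motif that has a direction. It halts the extrusion of chromatin loops by cohesin and in this way helps to set which enhancers meet which promoters. The listed genes encode proteins that slide nucleosomes, write or erase histone marks and DNA methylation, or bind DNA and recruit such enzymes. Loss of 1 copy of many of them is a known cause of autism or intellectual disability in people.

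Sequences are shown for strong motif-bearing sites of the role groups, to let the CTCF motif be read beside the values given for these genes. They are not a sample of all matches. Each line gives 30 bases of mm10 from 5′ to 3′ on the strand of the motif, with the 14-base match in capitals. The first 3 lines are promoter sites of 3 genes, and the rest lie inside genes. Either strand could hold the CTCF motif, its centre had to lie within 50 bp of the summit, and up to 2 mismatches were allowed.
Adnp promoter, chr2:168207367-168207396, plus strand: ccattgccCCACTAGGAGGCGCcgtggata
Kmt2e promoter, chr5:23433932-23433961, plus strand: ctcctcagCCACTAGTGGGCGTcgagtgac
Kat6b promoter in the 5′ UTR, chr14:21500991-21501020, plus strand: cggcacctCCTCCAGGCGGCAGccgtagct
Adnp intron, chr2:168205487-168205516, minus strand: tgtgggagTCAGTAGGGGGCGCattccctg
Mbd5 intron, chr2:49313280-49313309, minus strand: agttctggCCACTAGGGAGCTCcctccacc
Ankrd11 intron, chr8:122906800-122906829, plus strand: gtacattaTCAGCAGAGGGCGCtggaggaa
Chd2 intron, chr7:73524506-73524535, plus strand: caaaatggCCACAAGAGGACAGcacaacaa
Arid1b intron, chr17:5202042-5202071, plus strand: cactgctcCCACTAGAGGGCTTccttccag
Smarcb1 coding exon, chr10:75897495-75897524, plus strand: cagtgtctCCAGCAGGGGGCACcactggtc
Kmt2c intron, chr5:25420784-25420813, plus strand: ttttctagCCACTAGGTGGCACatgtgcca
Kmt2c intron, chr5:25436265-25436294, plus strand: taattccaCCACTAGGTGGCAGaggcacgc
Ehmt1 intron, chr2:24852578-24852607, plus strand: attattatCCACCAGGGGGCATcaggctaa
The Smarcb1 match and both Kmt2c matches held no mismatch. The Adnp promoter, Adnp intron, Ankrd11 and Ehmt1 matches held 1, and the other lines 2. Over all 116 matches at sites of the listed genes, 11 held no mismatch, 30 held 1 and 75 held 2, so the lines shown lie closer to the motif than the whole set.

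The promoters of Setd2 and Chd8 carried strong sites with no such match, and are shown for that contrast. The closest stretch at each held 3 mismatches, so the contrast depends on the limit of 2. Each line gives the 80 bases around the summit on the strand of the gene, with every CG dinucleotide in capitals.
Setd2 promoter, chr9:110532313-110532392, plus strand: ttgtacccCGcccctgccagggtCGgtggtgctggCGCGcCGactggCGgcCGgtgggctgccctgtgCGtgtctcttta
Chd8 promoter, chr14:52257949-52258028, minus strand: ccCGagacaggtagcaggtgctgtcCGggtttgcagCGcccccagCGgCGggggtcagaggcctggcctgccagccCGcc
The Setd2 stretch held 8 CG dinucleotides at 71.2% G+C. The Chd8 stretch held 6. The absence of a match says only that no stretch with at most 2 mismatches lay in the window searched.

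Of the 44 genes, 25 (56.8%) had a promoter site, against 36.8% of all protein-coding genes. A promoter site at or above the median signal value of the list was present at 14 (31.8%), against 16.9% of all protein-coding genes. The signal value is the strength that the authors' peak caller gave each peak, in units that the sources used here do not state. It was 64.3 at the median of the whole list. A gene-body site was present at 40 (90.9%), against 53.0% of all protein-coding genes.

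The listed genes were long and had G+C-rich starts, and both properties went with CTCF sites over all genes. Their median length was 87.0 kb, against 17.4 kb for all protein-coding genes. In the quintile of longest genes, 20 of 33 listed genes (60.6%) had a promoter site, against 52.7% of all genes in that quintile. In the same quintile 31 of 33 had a gene-body site, against 89.4% of all. In the quintile with the most G+C around the gene start, 14 of 25 listed genes (56.0%) had a promoter site, against 59.5% of all. In the next G+C quintile down it was 5 of 10, against 52.9% of all, and in the middle quintile 2 of 4, against 39.9%. The lowest quintiles held few listed genes but went the other way: Chd2, Kat6b and Tcf4 had a promoter site and Phf21a had none, against 7.32% of all genes in the lowest quintile. Hdac4, the 1 listed gene in the quintile above that, had a promoter site, against 24.2% of all. The G+C was taken at the gene start, whereas the promoter sites of Kat6b and Hdac4 and the stronger of those of Tcf4 lay at internal TSSs.

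In the CHD family, ATP-dependent remodellers that slide nucleosomes, 3 of 5 genes had a promoter site. Chd8, a frequently mutated autism gene, had 1 site with a signal value of 191, and 116 and 74.4 in replicates 1 and 2. It lay 209 bp upstream of the TSS, close also to the start of the opposite-strand gene Gm43766, and was the only site of Chd8. Chd7, the gene of CHARGE syndrome, had a site of 71.2 with 39.4 in replicate 1 and 30.3 in replicate 2. Chd2, an epilepsy gene, had a weaker promoter site of 34.5, but an intronic site of 268 with 141 in replicate 1 and 129 in replicate 2. Chd3 and Chd4, the motor subunits of the NuRD complex, had no promoter site and 2 and 3 gene-body sites.

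In the BAF (SWI/SNF) group, whose products form a remodelling complex that opens nucleosomes, 5 of 9 genes had a promoter site. Arid2, a DNA-binding subunit of the PBAF form, had a site of 121 with 65.6 and 55.3 in replicates 1 and 2. Smarca2, an alternative ATPase of the complex, had 115 with 70.4 in replicate 1 and 45.5 in replicate 2, at an internal TSS. The promoters of Arid1a, Smarcb1 and Arid1b carried sites of 32.6, 21.6 and 19.4, all under the list median. Arid1b, the gene most often mutated in Coffin-Siris syndrome, had its strongest site in an intron, at 240 with 119 in replicate 1 and 122 in replicate 2. Smarcb1, a core subunit, had a site of 218 in coding sequence near the end of the gene, with 114 in replicate 1 and 104 in replicate 2. The ATPase gene Smarca4 had 5 gene-body sites and no promoter site, Smarcc1 had 3 and Smarcc2 had 1. Smarce1 had no site at all.

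Among the genes grouped under H3K4 methylation, a mark of active promoters and enhancers, 2 of 5 had a promoter site. Kmt2e had a site of 172 with 82.6 in replicate 1 and 88.5 in replicate 2, near the start of the neighbouring gene 5031425E22Rik. Kmt2d, the gene of Kabuki syndrome, had a site of 47.7 with 25.3 in replicate 1 and 22.5 in replicate 2. It lay near the starts of 5730414N17Rik and Gm49437. Kmt2a, the gene of Wiedemann-Steiner syndrome, had no promoter site but a site of 191 in coding sequence, with 107 in replicate 1 and 85.9 in replicate 2. Kmt2c had only an intronic pair 15.5 kb apart, whose sequences are printed above, at 153 and 125. Replicates 1 and 2 gave 78.5 and 72.7 at the stronger of these and 67.8 and 55.2 at the weaker. Setd1a, a schizophrenia risk gene, had no site in its body or promoter.

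Of the genes for other histone methyltransferases, 3 of 6 had a promoter site and all 6 a gene-body site. Setd2, the enzyme for trimethylation of H3K36, had a promoter site of 235 with 122 in replicate 1 and 109 in replicate 2. Kmt5b, which methylates histone H4, had 107 with 49.2 in replicate 1 and 56.4 in replicate 2. Nsd1, the gene of Sotos syndrome, had 3 promoter sites of at most 46.8. Ehmt1, the gene of Kleefstra syndrome, had no promoter site and an intronic site of 132 with 66.4 in replicate 1 and 67.3 in replicate 2. Ezh2, the catalytic subunit of the Polycomb complex PRC2, had 1 gene-body site, as did Setd5.

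Of the genes of histone demethylation, 1 of 3 had a promoter site. That was Kdm6b, an H3K27 demethylase, at 47.0 with 22.2 in replicate 1 and 27.3 in replicate 2. Its strongest site was intronic, near the start of the antisense gene Kdm6bos, at 342 with 178 in replicate 1 and 164 in replicate 2. That site held no motif match, its closest stretch having 3 mismatches. Phf21a, which reads unmethylated H3K4 in the LSD1 complex, had 6 gene-body sites, each with a motif match. Kdm5b, an H3K4 demethylase, had 1.

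Of the genes linked to histone acetylation, 6 of 7 had a promoter site, and all 7 had gene-body sites. Kat6b, an acetyltransferase, had 158 with 79.2 in replicate 1 and 78.7 in replicate 2, at an internal TSS. Ep300, the p300 coactivator, had 104 with 53.6 in replicate 1 and 47.0 in replicate 2, near the start of Gm23880. Its paralogue Crebbp had a promoter site of 20.2 and only 1 gene-body site in 133 kb. Kansl1, Ankrd11 and the deacetylase Hdac4 had promoter sites of 79.0, 74.4 and 25.6, those of Kansl1 and Hdac4 at internal TSSs. That of Ankrd11 lay near the start of 2810013P06Rik. Ankrd11, the gene of KBG syndrome, held the strongest intronic site of this group, at 315 with 168 in replicate 1 and 146 in replicate 2. Kat6a had no promoter site and 5 gene-body sites.

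Among the genes of DNA methylation and Polycomb-linked proteins, 2 of 5 had a promoter site. Dnmt3a, a de novo DNA methyltransferase, had 198 with 105 in replicate 1 and 92.7 in replicate 2. Auts2 had 58.3 with 38.1 in replicate 1 and 20.7 in replicate 2 at an internal TSS, 90.8% of the way along the gene. Its promoter site at the gene start had 39.6 with 33.0 in replicate 1 and 8.94 in replicate 2. Its strongest site was intronic, a site of 334 with 174 in replicate 1 and 162 in replicate 2. Mbd5 had only 2 sites in 376 kb, the stronger at 326 with 176 in replicate 1 and 151 in replicate 2. Asxl3 had 3 gene-body sites of at most 28.9. Asxl1, which supports removal of the Polycomb mark on histone H2A, had no site.

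Among the DNA-binding factors, 3 of 4 had a promoter site, and Adnp had the strongest of the whole list of 44. ADNP forms a complex with CHD4 and HP1 that in mouse embryonic stem cells is known to compete with CTCF at SINE B2 elements. The Adnp promoter site, 284 bp upstream of the TSS, had a signal value of 324 with 180 in replicate 1 and 147 in replicate 2. It ranked 445 of 8081 promoters by their strongest site. An intronic site 1.93 kb away, also within the overlapping gene record Gm20716, was stronger still, at 404 with 214 in replicate 1 and 191 in replicate 2. Satb1, a chromatin organizer, had a promoter site of 81.3 with 42.0 in replicate 1 and 39.1 in replicate 2. Tcf4, the gene of Pitt-Hopkins syndrome, had weak promoter sites, 13.1 at the gene start and 18.6 at an internal TSS 72.3% of the way along the gene, but an intronic site of 310 with 163 in replicate 1 and 147 in replicate 2. Pogz had 1 site, intronic, at 130.

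**Figure D1:**
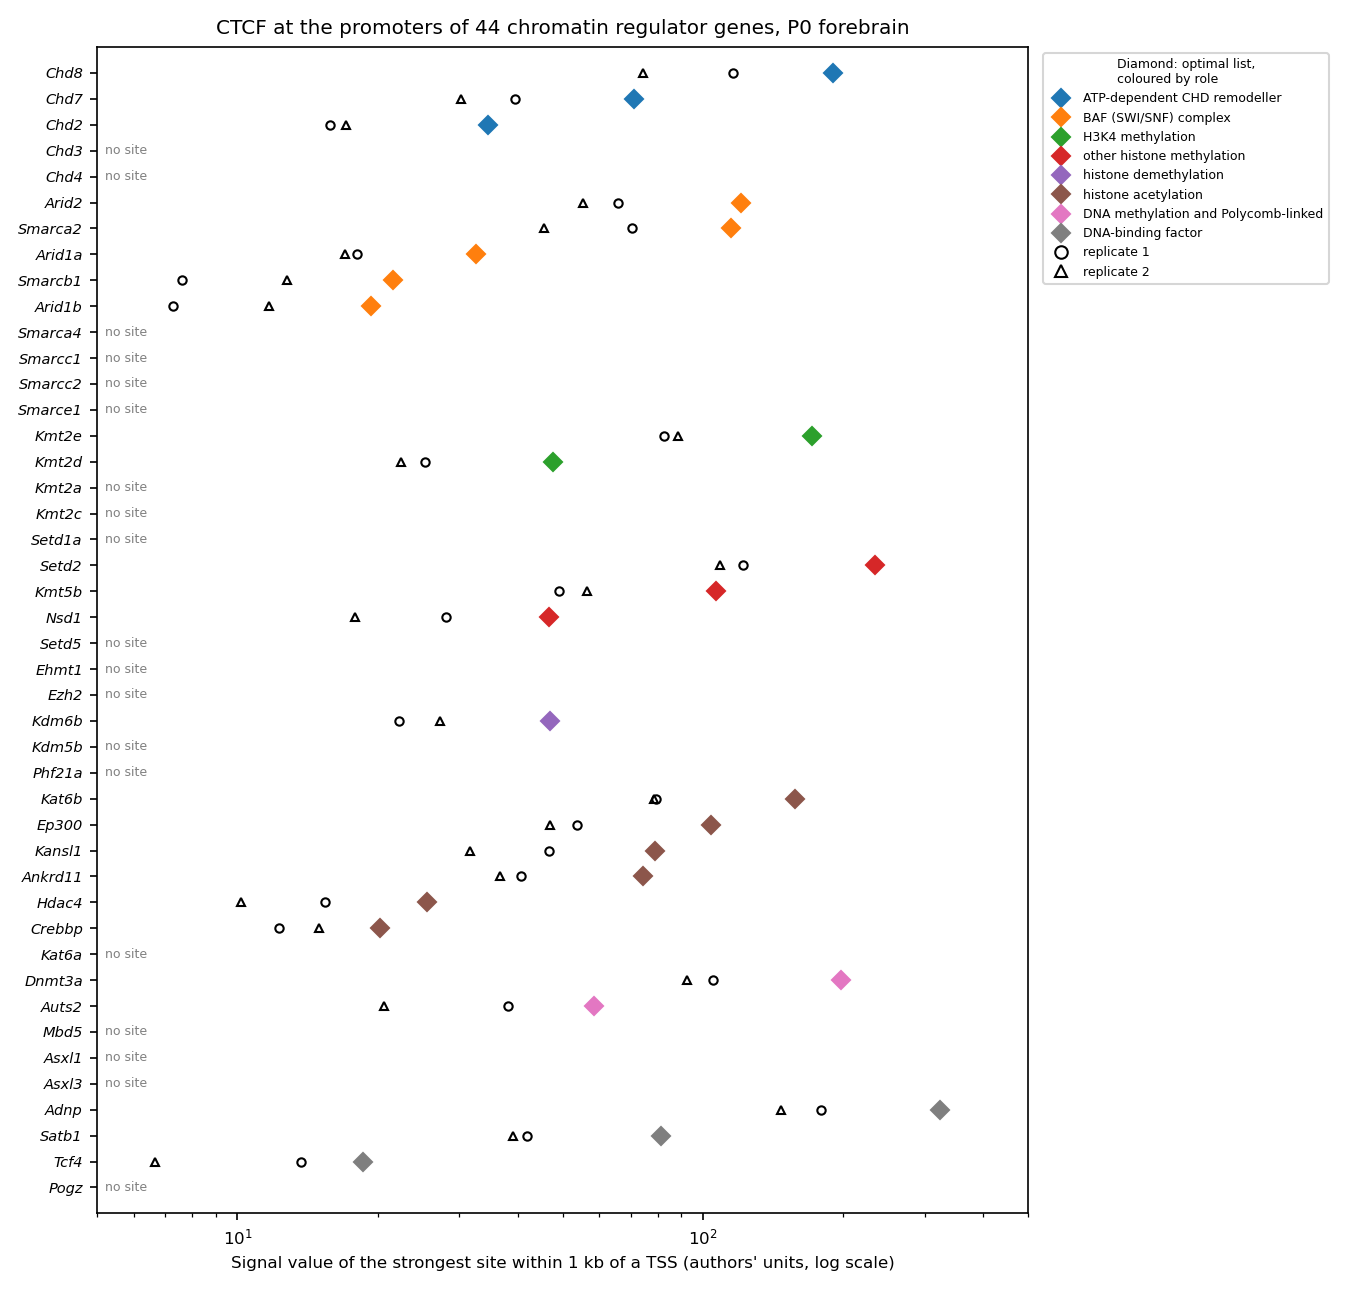
Signal value (log scale, authors' units) of the strongest promoter site of each of the 44 genes, grouped and coloured by role, with the optimal list as diamonds and replicates 1 and 2 as circles and triangles. The strongest was Adnp at 324 and the weakest Tcf4 at 18.6; 19 genes had no promoter site.

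A promoter site and a separate gene-body site were found at 24 genes, and 16 had gene-body sites away from promoters alone. Chd8 had a promoter site alone. Smarce1, Setd1a and Asxl1 had neither. This split was not counted over all protein-coding genes or over genes of like length, so it is not shown to be particular to the listed genes. Next to Setd1a a site of 171 lay 2496 bp upstream, while the sites nearest to the starts of Smarce1 and Asxl1 were 18271 bp and 46635 bp away. Past the gene ends, the nearest sites lay 395 bp from Setd1a, 1771 bp from Smarce1 and 8750 bp from Asxl1. Of the 19 genes with no promoter site, 11 had a promoter peak with a q-value of at most 0.05 in the list of each replicate. Peaks of the 2 replicates were not matched to each other, so a shared peak is not shown. Not all were weak, since Smarcc2 had 9.68 in replicate 1 and 33.1 in replicate 2. A site within 5 kb of a TSS was present at 10 of the 19. Neither share was taken over other genes with no promoter site, so these counts are not shown to be particular to the listed genes. Of all protein-coding genes, 36.8% had a site within 1 kb of a TSS and 52.3% within 5 kb. The rule's distance separated close cases. Kmt2d (914 bp) and an Arid1a site (961 bp) were just inside 1 kb, and Setd5 (1070 bp, signal value 71.5) and Chd4 (1316 bp, 19.0) just outside. A site 981 bp upstream of the start of the Smarcc1 gene record was not counted, because no transcript of the basic set starts there.

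The listed genes held 189 gene-body sites in 6.12 Mb, or 3.09 per 100 kb, against 3.01 for all protein-coding genes. Over the longest quintile of genes the density was 2.94 per 100 kb in the listed genes and 2.39 in all. The 5 genes with most sites held 85 of the 189, a count that does not allow for gene length. Auts2 had 33 in 1106 kb, Tcf4 16 in 346 kb, Arid1b 15 in 353 kb, Hdac4 11 in 267 kb and Dnmt3a 10 in 108 kb. Per 100 kb, in the same order, they had 2.98, 4.63, 4.25, 4.12 and 9.22. The median listed gene had 2.50 gene-body sites. Without Auts2 the density was 3.11 per 100 kb, an alternative chosen after seeing the data.

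Set beside genes within 1.25-fold of their own length, 22 listed genes had more sites than the median, 7 as many and 15 fewer. Dnmt3a had more sites than 97.0% of genes of like length, Auts2 than 93.7%, Kdm6b than 92.1% and Tcf4 than 92.0%. Chd8, Smarce1, Setd1a and Asxl1 had no gene-body site. Among listed genes with at least 1, the lowest were Mbd5, Crebbp and Kmt2c: Mbd5 had more than 7.59%, Crebbp than 9.09% and Kmt2c than 12.4%. The list thus spanned nearly the full range of site counts for its lengths.

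**Figure D2:**
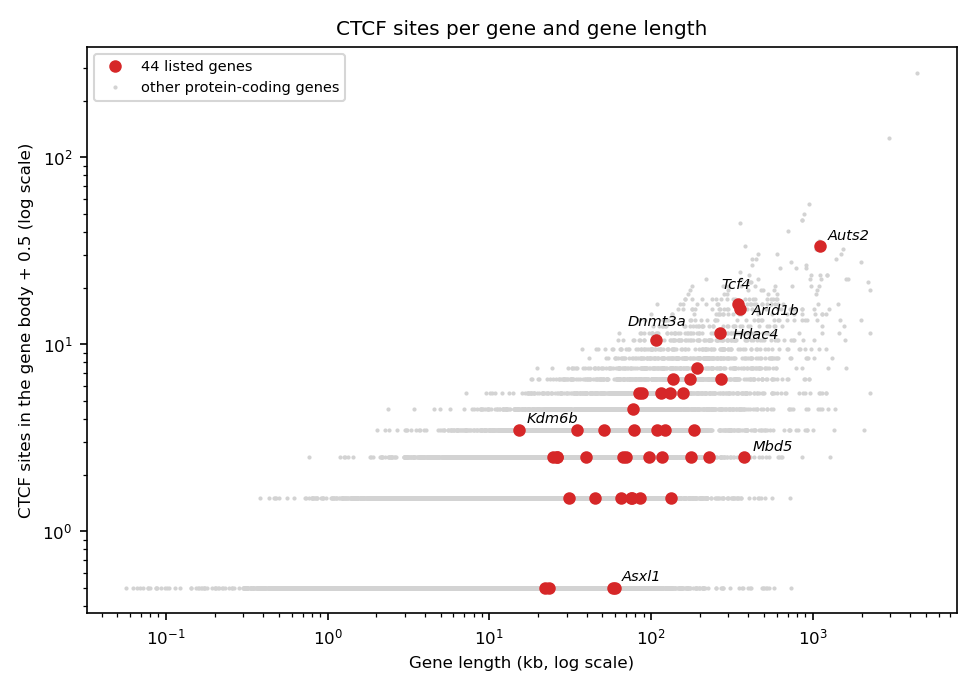
Gene-body sites per gene (plus 0.5, log scale) against gene length (kb, log scale), with the 44 listed genes in red and other protein-coding genes in grey. Auts2 with 33 sites and Dnmt3a with 10 lie high for their length, Mbd5 with 2 lies low.

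Within genes, sites were uneven. In Arid1b, 7 sites lay in 1 intron with gaps as short as 609 bp, and the longest gap in the gene was 136 kb. In Auts2 the gaps ran between 727 bp and 116 kb, with a median of 19.3 kb. In Dnmt3a the median gap was 9.24 kb. Of the 163 sites away from promoters, 153 were intronic, 7 in coding exons and 3 in UTRs. The same split was not taken over all protein-coding genes, so it is not shown to be particular to the listed genes. A site within 5 kb of the gene end was present at 16 of 44 genes (36.4%), against 35.7% of all protein-coding genes.

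**Figure D3:**
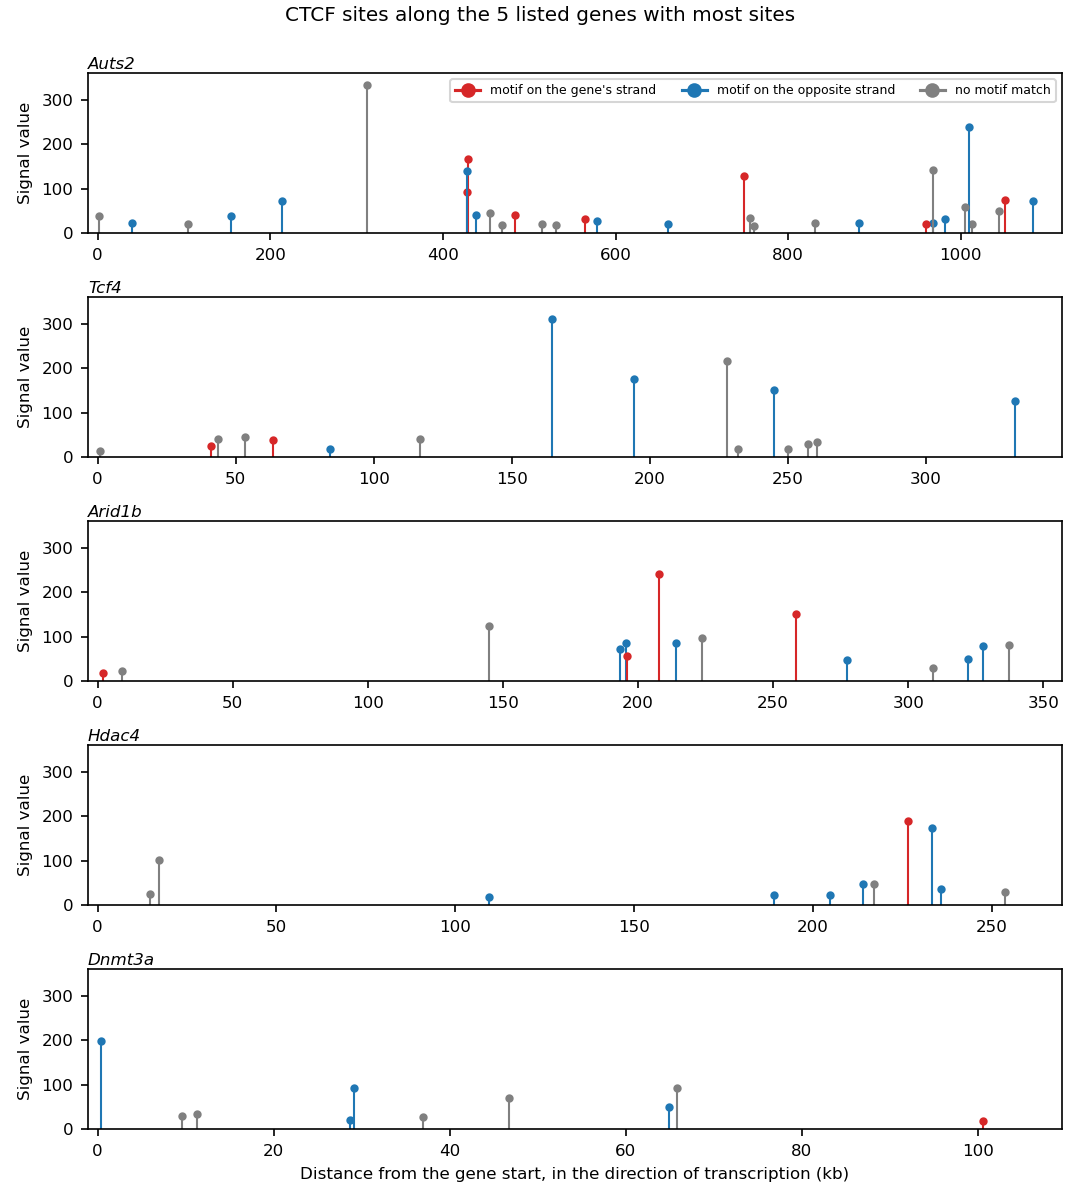
Sites along Auts2, Tcf4, Arid1b, Hdac4 and Dnmt3a: distance from the gene start in the direction of transcription (kb) against signal value (authors' units), coloured by motif strand. Strong sites stand among many weak ones, with the highest at 334 in Auts2 and 310 in Tcf4.

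The sites of the listed genes had a lower median strength than the list as a whole, with no test made. Their median signal value was 47.0, against 64.3 for all sites, and 7 of 201 (3.48%) were in the top 10% of the list. Promoter sites had a median of 46.9, against 48.1 for promoter sites of all protein-coding genes. Sites elsewhere in the gene had 47.3, against 62.3 for such sites in all protein-coding genes. The medians were thus close at promoters and further apart inside genes.

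A motif match was found at 116 of 201 sites (57.7%, 95% Wilson interval 50.8% to 64.3%), against 67.2% of all sites. In windows 1000 bp upstream the share was 2.99% for sites of the listed genes and 3.31% for all sites. The intervals cover counting error only. At promoter sites 9 of 38 (23.7%, 13.0% to 39.2%) held a match, against 36.9% at all protein-coding promoter sites. Away from promoters it was 107 of 163 (65.6%, 58.1% to 72.5%), against 72.0%. Sites of the listed genes with a match had a median signal value of 63.6, and those without 34.2. The median G+C in the 200 bp around the summit was 68.5% at the 9 promoter sites with a match and 68.0% at the 29 without. Away from promoters it was 47.0% with a match and 49.2% without, so it differed by location more than by the presence of a match.

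**Figure D4:**
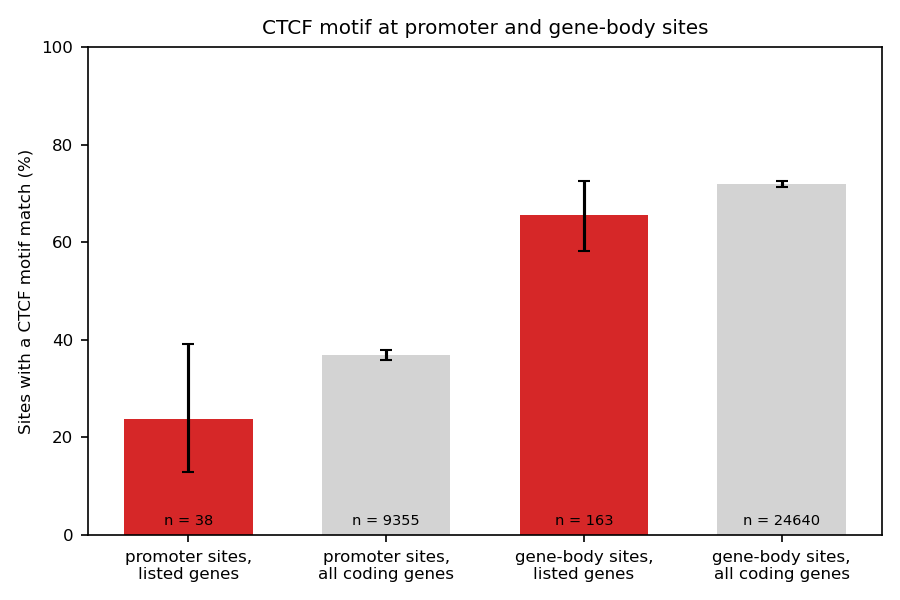
Share of sites with a CTCF motif match (%), at promoters and elsewhere in the gene, for the listed genes (red) and all protein-coding genes (grey); bars are shares and error bars 95% Wilson intervals. Promoter sites held a match at 23.7% in the listed genes and 36.9% in all genes, other gene-body sites at 65.6% in the listed genes and 72.0% in all.

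Of the 116 matches, 45 (38.8%) lay on the strand of the gene. That share was 39.2% without Auts2, which held 19 of the matches. Over gene bodies of all protein-coding genes it was 48.6%, whereas the 116 include promoter matches upstream of the gene. Away from promoters, the listed genes had 41 of 107 (38.3%). The difference was not tested. The same 12 bases, those that open each match printed next, were present at 20 of the 201 sites (9.95%), against 8.69% of all sites, a feature chosen after the matches were read. The 20 sites were intronic, in 13 genes. All 20 lay in sequence that the genome file marks as repeats, against 99.4% of the sites with these bases in the whole list. Examples are shown here, with the 14-base match in capitals.
Chd4 intron, chr6:125111095-125111124, plus strand: catagaggCCAGAAGAGGGCATcggatcca
Smarca4 intron, chr9:21630825-21630854, plus strand: gcctgcagCCAGAAGAGGGCACcagatctc
Setd5 intron, chr6:113103964-113103993, minus strand: cacaggggCCAGAAGAGGGCATtggatccc
Rodent B2 repeats are known to carry CTCF motifs, but no repeat classes were annotated here. The share was close to that of all sites.

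A peak was present in both replicates at 201 of 201 sites of the listed genes, against 56235 of 56462 sites in the whole list. The list was made from these replicates, and any overlap with 1 of the 300000 peaks per replicate counted. This outcome was thus largely fixed in advance. A Chd7 site and a Kmt5b site, among others, had no replicate 1 summit within 100 bp. After centring on the median over all sites, the log2 ratio of replicate 1 to replicate 2 had an SD of 0.52 over the listed genes' sites and 0.50 over all sites. It was beyond 1 in either direction at 13 sites (6.47%), against 6.26% of all. The largest differences were at weak sites. An Arid2 site had 17.5 in replicate 1 and 4.54 in replicate 2, a Chd2 site 8.10 and 23.1, and an Auts2 promoter site 33.0 and 8.94. A further Auts2 site had 9.89 in replicate 1 and 3.08 in replicate 2, and an Hdac4 site 15.7 and 4.95. With 1 library on each side, no single site could be tested. Neighbouring summits in Arid1a, Kansl1 and Ehmt1 were given the same strongest overlapping peak of each replicate. Those replicate values are thus not separate measurements. By the nearest replicate summit, the Kansl1 summits had 46.7 and 13.8 in replicate 1, and 31.6 and 17.8 in replicate 2.

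**Figure D5:**
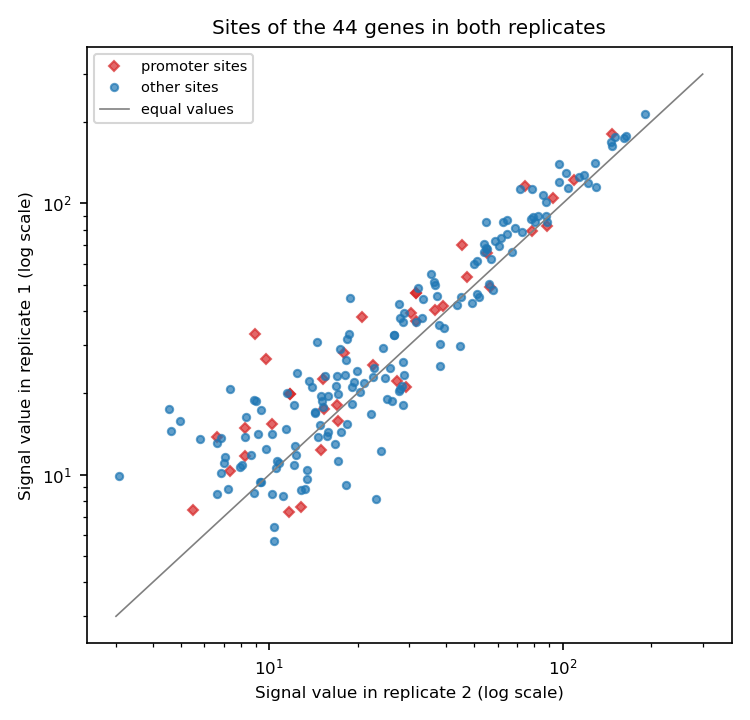
Signal value in replicate 1 against replicate 2 (log scales, authors' units) at the 201 sites, with promoter sites as red diamonds, other sites as blue circles and a line of equal values. Strong sites lie close to a common trend, and the spread is wider among weak ones.

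Partners and paralogues of the same complexes, 83 genes not on the list, gave a similar picture. A promoter site was present at 25 of 44 listed genes (56.8%) and 50 of 83 partners (60.2%). A gene-body site was present at 40 (90.9%) of the listed genes and 68 (81.9%) of the partners, whose median length was 35.3 kb. The density was 3.09 per 100 kb in the listed genes and 3.64 in the partners. Among the partners, the strongest promoter sites by role were at Chd9 (480), Smarcd1 (272), Kmt2b (269), Ash1l (151), Kdm3b (371), Brpf1 (57.0), Mbd1 (208) and Adnp2 (45.5). The strongest listed gene of each role had a weaker promoter site than its partner among the CHD, BAF, H3K4 methylation, demethylation and DNA methylation groups. It had a stronger one among the other histone methylation, acetylation and DNA-binding groups.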

How the data were processed

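CTCF ChIP-seq peak lists of 2 libraries from pooled postnatal forebrain were used, on mm10 per the labels. The authors deposited 1 list of 300000 peaks per replicate, a pooled list, and the optimal and conservative IDR lists. Neither aligner nor peak caller nor read depth is given in the sources used here. A possible control experiment that the labels point to was not analysed here. The deposited signal value was used to describe, rank and filter peaks. The deposited −log10 q-values were used only to count replicate peaks at a q-value of at most 0.05 (118097 and 123288 in replicates 1 and 2). The authors' IDR score was not used for any result.

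Summits were the start plus the offset column. A replicate's value at a site was that of its strongest overlapping peak, compared after centring. Gene models were GENCODE M21 basic, and the sequence was the RefSeq mm10 (GRCm38) genome. Values in both replicates were given for the strongest sites of each role group, the genes with most sites and the sites with the largest replicate difference. The members and lists were chosen with earlier results of these data known, so no list was tested. The motif search was tested on simulated data. Some sequences that the rule selects are not reported here. Python 3.11.15, numpy 2.4.6, scipy 1.17.1, pysam 0.24.0, samtools 1.23.1 and matplotlib 3.10.9 were used.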

Additional observations from a re-analysis of the deposited data

How the results depend on the processing

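Of 38 alternative values, 28 stayed within 1.5 times the reported count or within the error of the reported value. The limit for counts was wide. For the median signal value of 47.0, the error was the SD of the 2 replicate medians, 0.85. These medians were 23.7 and 22.5, so a list from 1 replicate could hardly stay within it. The tally is thus only a loose guide. The conservative list, which is not a subset of the optimal list and shared 164 summits of these genes with it, gave 25 genes with a promoter site. Windows of 500 bp and 5 kb gave 17 and 35, against 30.4% and 52.3% of all protein-coding genes. With only sites at or above the median signal value, 14 genes had a promoter site, 71 gene-body sites remained at 1.16 per 100 kb, 71.8% of sites held a motif match, the median signal value was 131 and the SD of the replicate log2 ratio was 0.25. That setting removes the weaker sites by construction, and left 16.9% of all protein-coding genes with a promoter site. At most 1 mismatch gave a motif share of 20.4% (all sites 36.5%) and at most 3 gave 85.6% (all sites 88.0%).

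To leave out a replicate, the strongest peaks of the other were taken, as many as in the optimal list, with no IDR step. The total number of peaks was thus fixed in advance. Without replicates 1 and 2, 28 and 27 genes had a promoter site, against 37.2% and 38.3% of all protein-coding genes. A gene-body site was present at 40 and 39, against 53.2% and 53.8% of all. There were 181 to 186 gene-body sites at 2.96 to 3.04 per 100 kb. The median signal value was then 22.9 to 23.2. Over all optimal-list sites, replicate 1 values had a median of 35.0 and replicate 2 values one of 30.3. Each single-replicate list gave a motif share of 57.7%, from 113 of 196 and 116 of 201 sites; only 44 and 30 of these summits were identical to optimal-list summits. No paired analysis was possible because there was 1 group. Read depth is not given, so a gene with no site is one with none detected at this threshold.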
